A study of Mus musculus with 4 samples.

Results

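Chemokine receptors of myeloid cells were examined in alveolar macrophages (AMs), which reside in the air sacs of the lung, from mice with and without a 4T1 breast tumor. The 9 genes were taken by name from the gene count table of 54532 genes: Ccr1, Ccr2, Ccr3, Ccr7, Cxcr1, Cxcr2, Cxcr4, Cx3cr1 and the atypical receptor gene Ccrl2. All 9 were found and all 9 had enough counts to be tested. The Control group comprised 2 libraries from female wild-type mice that carried no tumor. The Tumor group comprised 2 libraries from female wild-type mice 2 weeks after inoculation of 4T1, a mouse mammary carcinoma line that spreads spontaneously to the lung. Per the methods of the study, wild-type mice were young adults of BALB/c background and 4T1 cells were placed in the mammary fat pad. The methods for sequencing describe the AMs only as purified. For AMs of the same model that were stained, the study gives CD45+ CD11b- CD11c+ SiglecF+ cells, a gate that leaves out CD11b+ cells, among which are neutrophils, eosinophils and most monocytes, and its results speak of AMs isolated for both staining and sequencing. The gate is not given for the libraries themselves. The labels do not say whether a library came from 1 mouse or from a pool. Library totals lay between 16167147 and 19205737 counts.

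Chemokine receptors are membrane-spanning G protein-coupled receptors that steer leukocytes along gradients of small secreted proteins, the chemokines. Most signal through inhibitory G proteins and are then shut off by receptor kinases and arrestins, whereas atypical receptors such as Ccrl2 bind or present ligands without this signal. The receptors differ by cell type: Cxcr2 is typical of neutrophils, Ccr3 of eosinophils, Ccr2 of inflammatory monocytes, Cx3cr1 of patrolling monocytes and many tissue macrophages, and Ccr7 of mature dendritic cells on their way to lymph nodes. Resting AMs stay in the airspace.

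The promoters of Cxcr2 with nearby Cxcr1, and of Ccr3 with nearby Ccr1, are shown here. In each pair 1 gene rose steeply and the other did not pass the test. The windows are placed by RefSeq on build GRCm38.p6, from 250 bases before to 50 bases after the transcription start. Capitals mark matches on either strand to any of 6 short motifs. The first is GCGTG, the core of the xenobiotic response element bound by the receptor AHR. The next is GAGGAA, a core of the sites of the myeloid factor PU.1, and another is AGATAA, recognised by factors of the GATA family that act in eosinophils and mast cells. The others are TTCNNNGAA, bound by STAT factors, then TTGCNNAA, bound by C/EBP factors of granulocytes, and lastly TATAAA, the box bound by the general transcription machinery. Reverse-strand matches read as the reverse complement.
Cxcr2, chr1:74153744-74154043, plus strand: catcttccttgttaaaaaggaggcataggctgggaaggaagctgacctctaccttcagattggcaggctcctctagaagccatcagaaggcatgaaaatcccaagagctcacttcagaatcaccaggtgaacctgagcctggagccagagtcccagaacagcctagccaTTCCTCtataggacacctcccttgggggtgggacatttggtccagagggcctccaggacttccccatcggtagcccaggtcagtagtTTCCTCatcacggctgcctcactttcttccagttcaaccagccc
Cxcr1, chr1:74194582-74194881, minus strand: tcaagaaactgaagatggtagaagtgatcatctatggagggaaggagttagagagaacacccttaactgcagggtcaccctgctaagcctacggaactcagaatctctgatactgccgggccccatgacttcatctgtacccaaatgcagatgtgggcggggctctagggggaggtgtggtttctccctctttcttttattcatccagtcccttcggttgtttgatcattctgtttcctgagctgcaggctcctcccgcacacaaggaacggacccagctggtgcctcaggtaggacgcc
Ccr3, chr9:124021721-124022020, plus strand: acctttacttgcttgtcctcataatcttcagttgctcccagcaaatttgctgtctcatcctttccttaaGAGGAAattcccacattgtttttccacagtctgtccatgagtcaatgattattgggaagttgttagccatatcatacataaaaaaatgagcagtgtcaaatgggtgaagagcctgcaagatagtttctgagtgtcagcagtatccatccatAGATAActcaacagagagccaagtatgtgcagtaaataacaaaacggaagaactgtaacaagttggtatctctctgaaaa
Ccr1, chr9:123968643-123968942, minus strand: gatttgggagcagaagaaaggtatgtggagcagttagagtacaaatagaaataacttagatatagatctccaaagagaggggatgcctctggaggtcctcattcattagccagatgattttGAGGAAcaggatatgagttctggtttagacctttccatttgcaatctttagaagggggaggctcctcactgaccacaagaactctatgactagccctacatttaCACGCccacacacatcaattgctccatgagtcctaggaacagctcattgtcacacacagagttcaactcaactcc

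Promoter windows of 8 of the 9 genes were found, 10 windows in all, since Ccrl2 has several starts, and none was found for Ccr7. The AHR core was present in those of 4 of the 8 genes, Ccr1, Ccrl2, Cxcr4 and Cx3cr1, against 32.4% of all 32851 promoter windows, and it was not among the letters of the Cxcr2, Ccr3, Ccr2 or Cxcr1 windows. The PU.1 core was found for Ccr1, Ccr3 and Cxcr2 (28.3% of all windows), the GATA element for Ccr2, Ccr3 and Ccrl2 (11.2%) and the TATA box for Cxcr4 (13.6%), where 2 matches on opposite strands overlapped. The STAT element (8.3% of all windows) and the C/EBP element (10.8%) were found for 0 of the 8 genes. CpG dinucleotides were sparse in the windows of Ccr1, Ccr2 and Ccr3, with 1 each, and of Cxcr2, with 2, against a median of 7 over all windows. Cxcr4 had 20, the upper quartile of all windows. These are matches of letters in the reference strain, not measured binding sites.

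The receptors moved unevenly: 6 were higher and 1 was lower in the Tumor libraries. By edgeR's quasi-likelihood test with Benjamini-Hochberg adjustment over 14256 genes, 6 of 9 receptors were higher, against 29.0% of all genes tested, and 1 was lower, against 24.8% (53.8% in either direction). The rise was at least 2-fold for 5 receptors, a size reached by 12.9% of all genes tested. The median log2 fold change of the 9 receptors was 1.22, beside 0.02 for all genes tested. In all 9 genes the Control and Tumor libraries did not overlap in CPM (counts relative to library totals adjusted by TMM, the trimmed mean of M-values), but this also held for 75.1% of genes tested. Ccr1 and Cxcr1 did not pass the test. In these bulk libraries, fewer or more cells of a type and less or more RNA per cell cannot be told apart.

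**Figure D1:**
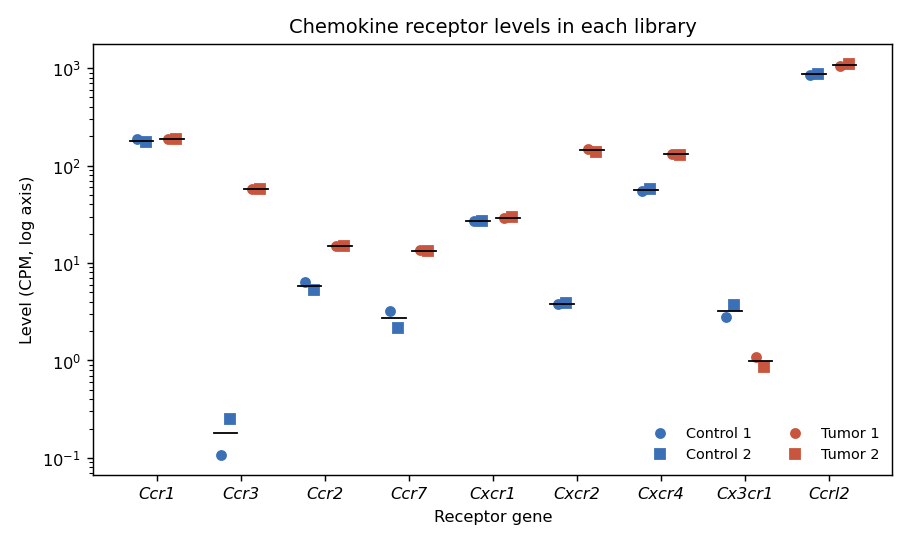
Level of each receptor gene in CPM on a log axis, with blue points for the 2 Control and red points for the 2 Tumor libraries and black lines for group means. Ccr3 rose from 0.180 to 57.7 CPM and Cxcr2 from 3.83 to 143.1 CPM, while Ccr1 lay between 174.1 and 188.9 CPM and Cxcr1 between 26.8 and 29.4 CPM in all 4 libraries.

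Cxcr2, the main receptor of neutrophils for Cxcl1, Cxcl2 and related chemokines, lies on the plus strand of chromosome 1 (ENSMUSG00000026180, 74153989 to 74161246, GRCm38 coordinates). Its counts were 71 and 61 in Controls against 2556 and 2720 in Tumor libraries. Both Tumor libraries lay far above both Controls. Its level rose from 3.83 ± 0.0547 to 143.1 ± 6.35 CPM (SD, n = 2 each), 37.3-fold, equal to a log2 fold change of 5.22 ± 0.0834 (SE, edgeR adjusted p = 1.39e-27). Only 3.21% of genes tested had a larger fitted rise.

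Cxcr1, the close relative of Cxcr2, lies 30.5 kb away on the opposite strand (ENSMUSG00000048480, 74191785 to 74194631). It had 507 and 423 counts in the Controls and 504 and 577 in the Tumor libraries, that is 27.0, 26.8, 29.1 and 29.4 CPM. The log2 fold change was 0.12 with a 95% interval from -0.0522 to 0.29, and the edgeR adjusted p was 0.238. Per length (FPKM, the CPM value divided by gene length in kilobases), the ratio of Cxcr1 to Cxcr2 was 14.6 and 14.2 in Controls against 0.403 and 0.434 with tumor. The order of the pair was therefore opposite in the groups: Cxcr1 was the more abundant transcript in Controls and Cxcr2 in Tumor libraries.

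Neutrophil genes moved with Cxcr2. All 10 neutrophil markers were higher by the edgeR test, and their summed level was 115.4 to 115.9 CPM in Controls and 4358 to 4366 CPM in Tumor libraries, 37.7-fold. The markers Ly6g, Ngp and Camp were at 0 to 2 counts in every Control library. Neutrophils carry CD11b, and whether the CD11b- gate given for stained AMs was also used for these libraries is not stated. The part of neutrophils in the rise of Cxcr2 was not tested.

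Ccr3, the eotaxin receptor typical of eosinophils, lies on the plus strand of chromosome 9 (ENSMUSG00000035448, 124021972 to 124031689). It had 2 and 4 counts in the Controls, 1 of them at or under the floor of 3 counts, and 996 and 1137 in the Tumor libraries. Ccr3 was thus barely detected in Control AMs and abundant in both Tumor libraries, at 0.180 ± 0.104 and 57.7 ± 0.304 CPM (SD, n = 2 each). The ratio of pooled counts, corrected for TMM-scaled library sizes, was 332.3, with an exact 95% interval for counting error from 152.4 to 906.5. The edgeR adjusted p of Ccr3 was 5.81e-24. The size of the rise depends on the few Control counts: the fitted log2 fold change was 8.32 with all libraries, 7.78 without Control replicate 1 and 8.97 without Control replicate 2. For 1.16% of genes tested the fitted rise was larger. Of 6 eosinophil markers, 5 were higher, and without Siglecf, which AMs express too, these 5 summed to 0.570 to 0.587 CPM in Controls and 2864 to 2891 CPM in Tumor libraries. The granule genes Prg2 and Epx were at 1 count in each Control, and Prg3 was at 0 in both. The 6 basophil and mast cell markers, whose cells can also carry Ccr3, summed to 0.267 to 0.634 CPM in Controls and 55.0 to 62.9 CPM in Tumor libraries, all 6 higher. The part of these cells in the Ccr3 result was not tested.

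Ccr1, a receptor for Ccl3, Ccl5 and other inflammatory chemokines, lies near Ccr3 on chromosome 9 (ENSMUSG00000025804, minus strand, 123962124 to 123968692). Its counts were 3485 and 2747 in Controls and 3236 and 3706 in Tumor libraries, at 185.9, 174.1, 186.9 and 188.9 CPM. The log2 fold change was 0.06 with a 95% interval from -0.0150 to 0.14 and an edgeR adjusted p of 0.172. Ccr1 was the second most abundant of the 9 transcripts per length in Controls and the third in Tumor libraries, where Cxcr4 had passed it. In Tumor libraries it was above Ccr3 by 3.75-fold and 3.76-fold in FPKM, and in Controls Ccr3 had too few counts for a ratio.

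Between the starts of Ccr1 and Ccr2 the receptor cluster holds Ccr1l1 and Ccr3. Ccr1l1, a Ccr1-like gene, had 0 counts in both Controls and 2 and 11 in the Tumor libraries, too few to be tested. On the other side of Ccr1, the receptor genes Xcr1, Cxcr6 and Ccr9 did not pass the test, with log2 fold changes of 0.48, 0.44 and -0.31, the last of which turned to 0.23, not called, under the scaling on AM identity genes described further on, where Xcr1 passed the test at 1.02.

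**Figure D2:**
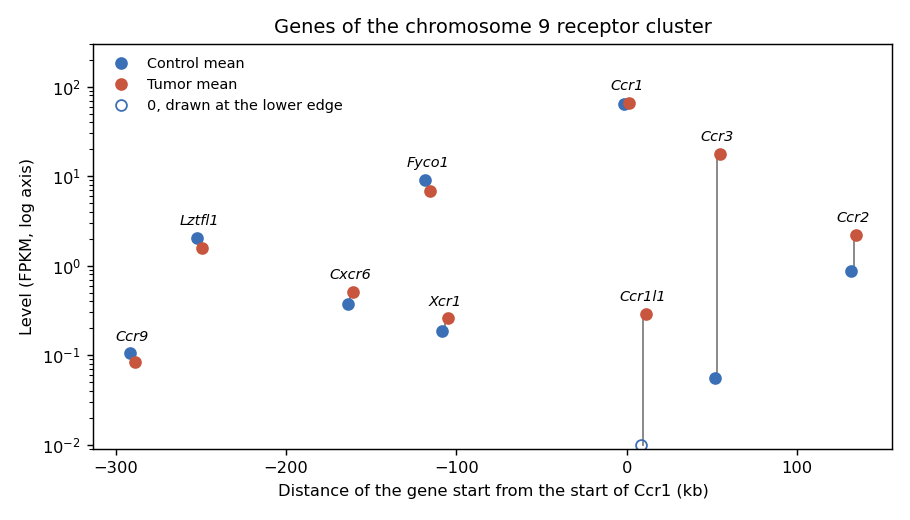
Mean level in FPKM (log axis) of the protein-coding genes from Ccr9 to Ccr2 against the distance of each gene start from that of Ccr1 in kb. Blue points are Control means and red points Tumor means of 2 libraries, joined by a line, and the open point marks the 0 of Ccr1l1 in Controls. Ccr3 rose from 0.0550 to 17.6 FPKM at 53.3 kb from Ccr1, which had means of 63.5 and 66.3 FPKM.

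Ccr2, the receptor for Ccl2 that brings monocytes out of the bone marrow, lies next to Ccr3 (ENSMUSG00000049103, plus strand, 124101950 to 124113557). It had 120 and 84 counts in Controls and 258 and 291 in Tumor libraries. The level rose 2.52-fold, from 5.86 ± 0.763 to 14.9 ± 0.0481 CPM (SD, n = 2 each), equal to a log2 fold change of 1.33 ± 0.145 (SE, edgeR adjusted p = 7.34e-09). Cx3cr1, the receptor for the membrane-bound chemokine Cx3cl1, moved the opposite way. It had 52 and 58 counts in Controls and 19 and 17 in Tumor libraries, so that both Tumor libraries lay below both Controls. The level fell 3.27-fold, from 3.22 ± 0.637 to 0.982 ± 0.163 CPM (SD, n = 2 each), equal to a log2 fold change of -1.71 ± 0.317 (SE, edgeR adjusted p = 4.36e-05). A larger fitted fall was seen for 0.828% of genes tested.

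The ratio of Ccr2 to Cx3cr1 per length was 1.54 and 0.965 in Controls and 9.05 and 11.4 in Tumor libraries. Both transcripts were low in AMs, above only 21.9% and 20.1% of protein-coding genes tested by FPKM in Controls. The annotated span of Cx3cr1 (ENSMUSG00000052336, minus strand of chromosome 9, 119901616 to 120069879) overlaps 9 other genes, 3 of them on the same strand. Reads in shared exons could have been dropped or counted elsewhere, so its level is uncertain. None of the other 8 receptors overlapped another gene of the table. Of 10 markers of monocytes and interstitial macrophages, 9 were tested, 3 were higher and 2 lower, and the sum of all 10 was 945.4 to 966.3 CPM in Controls and 800.6 to 801.4 CPM in Tumor libraries. Nr4a1, an immediate early gene that macrophages express too, made up most of this sum, and without it, a choice made after the values were seen, the other 9 summed to 114.0 and 121.1 CPM in Controls and 186.7 and 184.2 CPM in Tumor libraries. Under scaling on AM identity genes 7 of the list were higher and 0 lower. Over all genes tested, 72.7% were higher and 4.33% lower at that scaling, and 29.0% and 24.8% under TMM scaling. Under TMM scaling the higher genes were Ly6c2, Plac8 and Spn. The lower genes were C1qa and Nr4a1, at log2 fold changes of -0.87 and -0.45, and Vcan and Ace were among those not called. The inflammatory monocyte marker Ly6c2 had 2 and 7 counts in Controls and 14 and 41 in Tumor libraries. The part of monocytes in the Ccr2 and Cx3cr1 results was not tested.

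Ccr7, which guides mature dendritic cells and lymphocytes toward Ccl19 and Ccl21, lies on the minus strand of chromosome 11 (ENSMUSG00000037944, 99144196 to 99155077). It had 61 and 34 counts in Controls and 233 and 259 in Tumor libraries. The Controls differed between themselves, at 3.25 and 2.15 CPM, but both were well below the Tumor libraries, at 13.5 and 13.2 CPM. The rise was 4.85-fold, equal to a log2 fold change of 2.28 ± 0.180 (SE, edgeR adjusted p = 1.23e-11). Among 8 dendritic cell markers, 5 were higher and 1 was lower, and their sum rose from between 18.8 and 19.7 CPM to between 71.6 and 77.8 CPM. T cell and NK cell markers summed to 11.4 to 12.4 CPM in Controls and 26.2 to 26.4 CPM in Tumor libraries, with 4 of 7 tested genes higher, and B cell markers to 19.5 to 21.6 and 43.1 to 45.6 CPM, with 5 of 6 higher. Over all genes tested 29.0% were higher and 24.8% lower. The part of dendritic cells and lymphocytes in the Ccr7 result was not tested.

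Cxcr4, the receptor for Cxcl12 that retains leukocytes in bone marrow and marks aged neutrophils, lies on the minus strand of chromosome 1 (ENSMUSG00000045382, 128588199 to 128592293). Its counts were 1021 and 914 in Controls and 2291 and 2537 in Tumor libraries. The level rose 2.33-fold, from 56.2 ± 2.43 to 130.8 ± 2.12 CPM (SD, n = 2 each), equal to a log2 fold change of 1.22 ± 0.0490 (SE, edgeR adjusted p = 3.08e-18). Unlike Cxcr2 and Ccr3, Cxcr4 was already abundant in Control AMs, above 87.7% of protein-coding genes tested per length. It is carried by many leukocytes, so that no single marker list belongs to it.

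Ccrl2, an atypical receptor that binds chemerin and presents it to cells with the signalling receptor Cmklr1, lies on the minus strand of chromosome 9 outside the cluster (ENSMUSG00000043953, 111054486 to 111057519). It had 15977 and 13745 counts in Controls and 18212 and 21830 in Tumor libraries. Per length it was the most abundant of the 9 transcripts in every library, at 331.7 ± 5.05 FPKM in Controls and 416.5 ± 16.6 FPKM in Tumor libraries (SD, n = 2 each), above 99.1% of protein-coding genes tested in Controls. Its rise was small, 1.26-fold, but exceeded the spread between replicates, at a log2 fold change of 0.33 ± 0.0235 (SE, edgeR adjusted p = 1.44e-12). Cmklr1 was low and rose from 28 and 19 to 86 and 86 counts, by 1.77 ± 0.261 on the log2 scale (SE). Rarres2, which encodes chemerin, had 2 and 5 counts in Controls and 22 and 14 in Tumor libraries and rose by 2.23 ± 0.635 (SE).

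**Figure D3:**
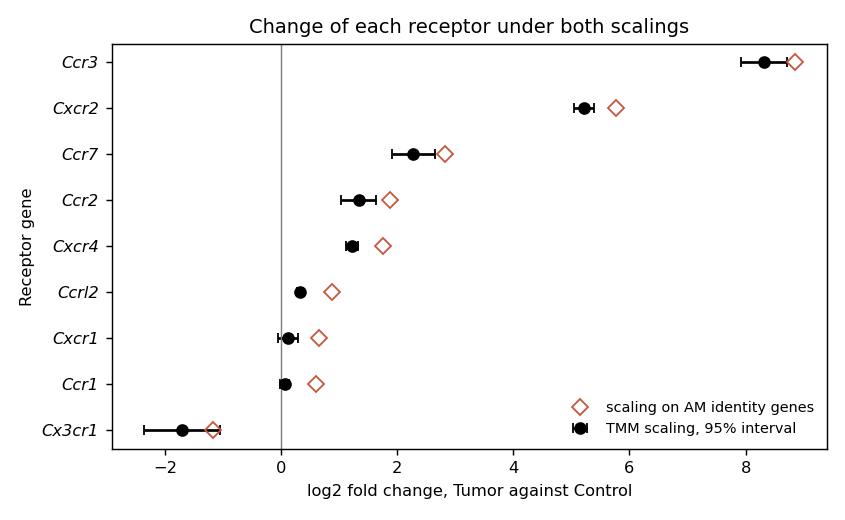
Log2 fold change of each receptor, Tumor against Control, with black points and 95% intervals under TMM scaling and open red diamonds under scaling on AM identity genes. Intervals of Ccr1 and Cxcr1 crossed 0 under TMM scaling, and the diamonds of all 9 receptors lay to the right of the black points, with Cx3cr1 still below 0 at -1.17.

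These directions hold relative to the scaling of the libraries. The 14 AM identity genes were all lower in the Tumor libraries (median log2 fold change -0.52). Their sum was 18056 to 18133 CPM in Controls and 12007 to 12153 CPM in Tumor libraries. In the Tumor libraries Fabp4 was low, at 6.12 and 5.45 CPM, and Marco had at most 17.9 CPM, while the others were at 71.7 CPM or above in every library. When libraries were scaled on these genes, the median log2 fold change of all genes moved by 0.54, and 8 receptors were higher and 1 was lower, against 72.7% and 4.33% of all genes tested at that scaling. Ccr1 was then higher by 0.60, with an adjusted p of 3.90e-16, and Cxcr1 by 0.66, with an adjusted p of 1.78e-08. Relative to the shifted median the log2 fold changes of Ccr1 and Cxcr1 were 0.04 and 0.10. With total counts as library sizes Ccr1 was higher by 0.13 with an adjusted p of 0.00448. Among the alternatives tried, the adjusted p lay between 3.90e-16 and 0.941 for Ccr1 and between 1.78e-08 and 0.543 for Cxcr1. Hepatocyte markers were also present, with 7 genes at the floor in both Controls and a sum of 628.9 to 629.8 CPM in Tumor libraries, and their part in any receptor result was not tested.

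Levels were then compared between receptors per length, as FPKM, without a test. The order in Controls was Ccrl2, Ccr1, Cxcr4, Cxcr1, Ccr7, Cxcr2, Ccr2, Cx3cr1 and Ccr3. Of the 8 pairs of neighbours in this order, 6 were apart in both libraries, while Ccr7 overlapped with Cxcr2 and Ccr2 with Cx3cr1. In Tumor libraries the order was Ccrl2, Cxcr4, Ccr1, Cxcr2, Cxcr1, Ccr3, Ccr7, Ccr2 and Cx3cr1, with all 8 pairs of neighbours apart. Cxcr2 stood at 1.26 ± 0.0179 FPKM in Controls and 47.0 ± 2.08 FPKM in Tumor libraries (SD, n = 2 each), whereas Ccr2 reached only 2.20 ± 0.00712 FPKM in Tumor libraries. Ccrl2 made up 73.9% of the summed FPKM of the 9 receptors in Controls and 64.2% in Tumor libraries. The share of Cxcr2 went from 0.280% to 7.24%, that of Ccr3 from 0.0122% to 2.72% and that of Cxcr4 from 6.93% to 11.2%, and Ccr1 and Cxcr1 took smaller shares, 14.2% against 10.2% and 4.03% against 3.03%.

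**Figure D4:**
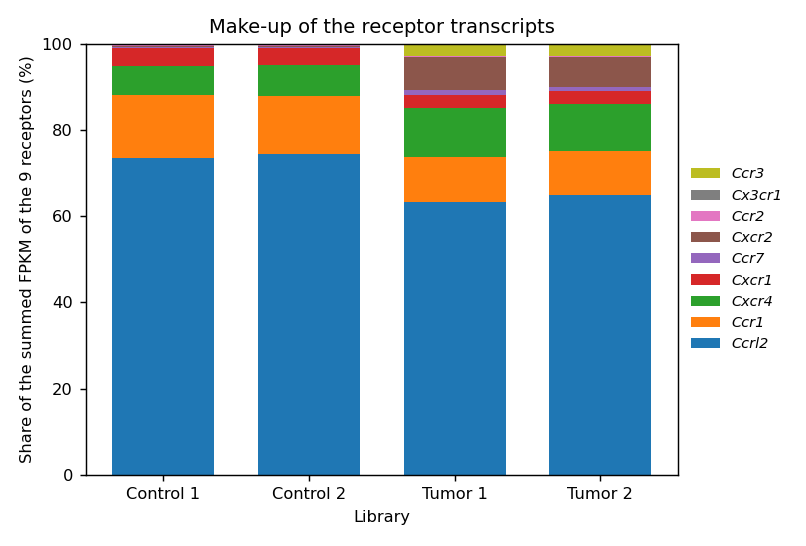
Share of each receptor in the summed FPKM of the 9 receptors, in percent, as 1 stacked bar for each library. Ccrl2 filled 73.5% and 74.4% of the Control bars and 63.4% and 65.0% of the Tumor bars, and Cxcr2 and Ccr3 were visible in the Tumor bars alone.

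The genes closest to each receptor in log2 CPM over the 4 libraries (2 per receptor, protein-coding and outside the lists) were then identified by Euclidean distance. Closest to Cxcr2 were Hp, which encodes haptoglobin, and Ripor2, at distances of 0.45 and 0.56. Closest to Ccr3 were Wnt11 and Slc28a2, at 0.38 and 0.53. Wnt11 had 3 and 4 counts in Controls and 1083 and 1290 in Tumor libraries. Ccr2 was nearest to St3gal6 and Nsmaf, Ccr7 to Polm and Fcho1, Cxcr4 to Hsph1 and Jak2, and Ccrl2 to Klf6 and Fosl2. Cx3cr1 was nearest to Mmp13, which fell from 61 and 63 to 17 and 20 counts, and to A430033K04Rik. Ccr1 was nearest to Glg1 and Dennd4c, and Cxcr1 to Zdhhc17 and Atp5o. With 4 libraries in 2 groups this likeness reflects level and group difference alone.

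Of 11 other chemokine receptor genes, most of them lymphocyte receptors, 6 were tested and 2 were higher, with 0 lower. The shares over all genes tested were 29.0% higher and 24.8% lower. Among them Cxcr5, the B cell follicle receptor, rose from 9 and 10 to 49 and 34 counts, by 2.02 ± 0.417 on the log2 scale (SE), at an adjusted p of 0.000162 by edgeR. The 11 genes summed to only 6.34 to 6.83 CPM in Controls and 12.0 to 14.2 CPM in Tumor libraries, against 1136 to 1145 and 1635 to 1686 CPM for the 9 receptors, in sums that are not corrected for length. The 4 decoy receptors Ackr1 to Ackr4 had at most 14 counts in a library, and 0 of 4 passed the filter.

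Of 11 receptors for other chemoattractants, 10 were tested. Under TMM scaling 4 were higher and 3 were lower, beside 29.0% and 24.8% of all genes tested. Under scaling on AM identity genes 8 were higher and 1 was lower, beside 72.7% and 4.33% of all genes tested. Ltb4r1, the leukotriene B4 receptor of granulocytes, rose from 12 and 5 to 714 and 781 counts, by 6.34 ± 0.183 on the log2 scale (SE). The formyl peptide receptor genes Fpr1 and Fpr2, which sense bacterial peptides, changed by -0.69 ± 0.0282 and -0.35 ± 0.0256, and the complement receptor gene C5ar1 by -0.56 ± 0.0271 (SE). Under scaling on AM identity genes Fpr2 turned to 0.19, C5ar1 to -0.0190 and no longer called, and Fpr1 to -0.15.

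Of 20 genes for ligands of the 9 receptors, 14 were tested, 3 were higher and 9 were lower, with a median log2 fold change of -0.18. Under scaling on AM identity genes 7 were higher and 4 were lower. Over all genes tested, 29.0% were higher and 24.8% lower under TMM scaling, and 72.7% and 4.33% under scaling on AM identity genes. Cxcl3, a Cxcr2 ligand, fell by 1.95 and Ccl9, a Ccr1 ligand, by 1.07 on the log2 scale, and both were still lower under that scaling, at -1.41 and -0.53. Cxcl12, the Cxcr4 ligand, had 3 counts in each Control library against 34 and 38 with tumor, which was at least 10.2-fold higher. The Ccr3 ligand gene Ccl11 and the Ccr7 ligand genes Ccl19 and Ccl21a had 0 counts in all 4 libraries. Copies of the latter pair on unplaced scaffolds were left out. The Cx3cr1 ligand Cx3cl1 was among the 9 lower genes.

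Of 21 genes that carry or end the receptor signal, 20 were tested, 11 were higher and 4 were lower. Among all genes tested 29.0% were higher and 24.8% lower. Rgs18, a regulator of G protein signalling, had 2 and 3 counts in Controls against 225 and 260 with tumor, which was at least 68.4-fold higher, and Rgs14 rose by 1.75 ± 0.0820 on the log2 scale (SE). The receptor kinase genes Grk3 and Grk5 changed by -0.59 ± 0.0400 and -0.45 ± 0.0799 (SE), but under scaling on AM identity genes by -0.0527 and 0.0912, neither called. At that scaling 18 genes of the list were higher and 0 lower, against 72.7% and 4.33% of all genes tested.

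**Figure D5:**
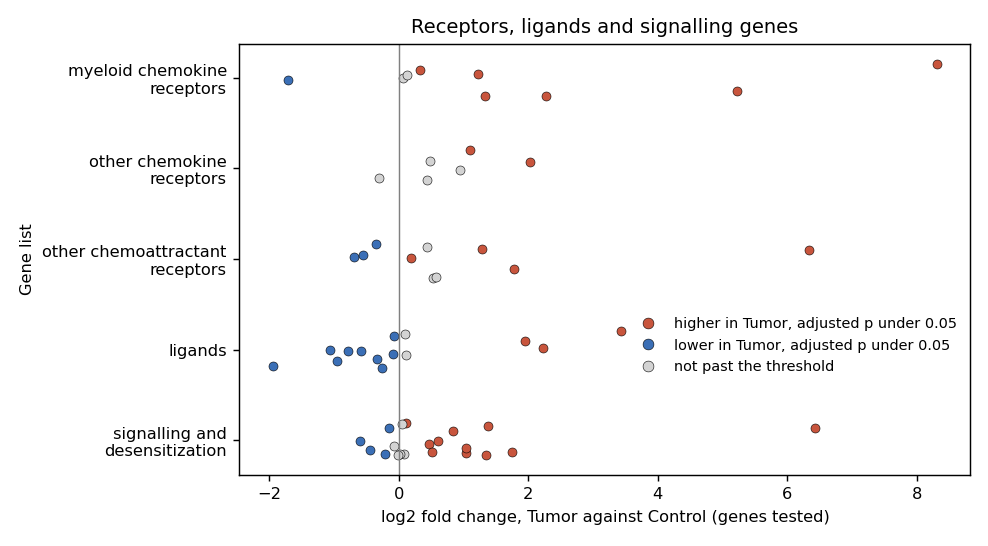
Log2 fold change, Tumor against Control, of the genes tested in 5 lists, 1 point a gene with random vertical offset, red where higher and blue where lower with an adjusted p under 0.05 and grey otherwise. The 9 receptors spread from -1.71 to 8.32, and 9 of 14 ligand genes lay to the left of 0 in blue; Rgs18 and Cxcl12 are drawn at fitted values that depend on the prior count.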

How the data were processed

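Bulk RNA-seq was performed on AMs in 2 Control and 2 Tumor libraries. Per the labels and the methods of the study, the authors made libraries with a NEBNext Ultra RNA kit, aligned paired-end reads with HISAT2 2.0.5 and counted them with featureCounts. The deposited table holds raw, whole-number counts for each gene with no normalization. Genome build, annotation, strand setting and how multi-mapped reads were handled are not given in the sources used here, so that counts of near-identical or overlapping genes are uncertain. All 9 receptor genes had the coordinates of GENCODE release M 21 (GRCm38). The deposited gene lengths served for FPKM.

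The main test was run with edgeR 4.0.16 under R 4.3.3, using filterByExpr at a minimum count of 10, TMM scaling and the quasi-likelihood test with group as the single term, with Benjamini-Hochberg adjustment over all genes and a threshold of 0.05. The SE was obtained as log2 fold change over the root of F. CPM used TMM-scaled library sizes, log2 CPM a prior count of 2. At 3 counts or fewer (0.153 to 0.190 CPM) a library was at the floor. Where both Controls were at the floor, the bound is the lower Tumor CPM over the higher Control floor. Intervals of count ratios and floors cover counting error only. A permutation of 2 against 2 libraries cannot go below a two-sided p of 0.333. Adjusted p-values rest on the spread between 2 libraries per group, moderated by edgeR over all genes tested, and this spread may be technical.

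The receptors, gene lists and named genes were chosen with earlier results of these data known. Named were the 9 receptors, in each other list of chemokine biology the largest rises and falls past the threshold (at most 4), Fpr2 and Cmklr1, and the 2 nearest genes per receptor. Markers, chromosome neighbours and genes at 0 were named with their values already known. A further gene of the rule is not reported here. Of 152 listed symbols 151 were in the table, and Tf was not matched. Alternatives were DESeq2 size factors, total counts, AM identity scaling, 2 other filters, DESeq2 1.42.0, limma-voom (limma 3.58.1), a replicate block, stricter thresholds and leaving out each library. The test was checked on simulated counts.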

Additional observations from a re-analysis of the deposited data

How the results depend on the processing

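Without 1 library at a time, 6 receptors were higher and 1 was lower in all 4 fits, in which the lone library of a group was assumed to vary like the other group. Of 107 alternative values of single receptors, 103 kept their direction and their side of the threshold. The exceptions were Ccr1 with total counts as library sizes (0.13) and with AM identity scaling (0.60), Cxcr1 with AM identity scaling (0.66), and Ccr1 without Control replicate 2 (-0.00517), neither of which had passed the test under TMM. Without Control replicate 1 the value of Ccr1 was 0.10. Ccr3 was not tested when 10 counts were required in every library.

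Requiring a log2 fold change of at least 1 reduced the genes called from 7671 to 2268, the chemoattractant receptors to 3, the ligands to 5 and the signalling genes to 6. The 2 other chemokine receptors called became 4 with AM identity scaling, 4 with no filter on low counts (11 genes tested) and 1 with at least 10 counts in every library (4 genes tested), and 2 to 3 without 1 library. Called decoy receptors numbered 0 to 1 without 1 library, the 1 being without Tumor replicate 1. AM identity scaling raised the share of higher genes among all calls from 53.9% to 94.4%, and total counts to 62.7%.

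With the replicate number as a block, 7446 genes were called in all, and 6 receptors were higher and 1 was lower. Deviations of same-numbered libraries correlated at -0.00278 over the genes tested, so no common deviation was seen. This cannot tell whether such libraries were processed together, which the labels do not say. The pairs differed beyond counting noise, with a chi-square per gene of 1.81 in Controls and 2.30 in Tumor libraries. Depth limits the receptors with few counts, Ccr3 in Controls and Cx3cr1 in Tumor libraries.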
